A study of Mus musculus with 12 samples.

Results

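The 3 GATA transcription factor genes of blood formation, Gata1, Gata2 and Gata3, were examined by chromatin accessibility in mouse bone marrow progenitors. Their members were all accessible regions of the deposited count table that overlapped the body of one of the genes extended by 20 kb on each side, and 28 of the 121336 regions met this rule: 3 at Gata1, 12 at Gata2 and 13 at Gata3. The assay was ATAC-seq, in which the Tn5 transposase inserts adapters into open DNA, so that the number of reads over a region measures its accessibility. The mice were wild type (WT) or homozygous for deletion of the upstream regulatory element of Spi1 (genotype label UREd/d, called URE here), an enhancer that maintains the transcription factor PU.1. The 4 sorted groups, of 3 libraries each, were WT-LSK and URE-LSK, and WT-GMP with URE-GMP. LSK cells (lineage negative, Sca-1 positive, c-Kit positive) hold the stem cells and multipotent progenitors, and GMP cells (lineage negative, Sca-1 negative, c-Kit positive, CD16/32 positive) are the progenitors of granulocytes and monocytes. The animals were preleukaemic littermates aged 8 to 12 weeks, the deletion was present in every cell of the body, and both gates held mixtures of cell types.

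GATA factors are zinc finger proteins that bind DNA at the core motif AGATAA and its close relatives. GATA2 maintains stem cells and drives mast cells and basophils, GATA1 drives red cells, megakaryocytes, eosinophils and mast cells, and GATA3 drives T cells and innate lymphoid cells and is also made in stem cells. GATA1 and PU.1 bind each other and each blocks the other's activity, and in erythroid cells GATA1 displaces GATA2 from the Gata2 gene, an exchange known as the GATA switch. Gata2 has a distal promoter used mainly in blood progenitors, a proximal promoter used more widely, and enhancers, of which the one in an intron downstream of the proximal promoter holds an E-box and a GATA motif and is required for stem cell emergence.

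Sequences are given for the regions on which the results turn, in mouse build GRCm38 (mm10) and on the strand of the gene. The Gata1 intron window lies at chrX:7963872-7964031 (minus strand), inside a region centred 3.78 kb downstream of the Gata1 start site, and the capitals mark GAGGAA, the core that PU.1 and other ETS factors bind. The window 3.54 kb upstream of the Gata1 start site lies at chrX:7971387-7971546 (minus strand) in the enhancer known as G1HE, with a GATA motif in capitals. Both windows are shown because they hold the only regions counted here that lie in the Gata1 gene body, which in the annotation reaches upstream of this start site to that of a longer transcript.
Gata1 3.78 kb downstream: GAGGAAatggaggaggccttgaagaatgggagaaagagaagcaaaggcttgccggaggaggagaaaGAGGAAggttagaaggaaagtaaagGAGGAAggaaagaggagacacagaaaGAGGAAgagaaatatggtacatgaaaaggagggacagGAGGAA
Gata1 3.54 kb upstream: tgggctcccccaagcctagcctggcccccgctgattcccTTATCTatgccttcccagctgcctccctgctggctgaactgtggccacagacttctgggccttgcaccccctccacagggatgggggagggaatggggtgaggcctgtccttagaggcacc
The pair of intergenic regions upstream of Gata2 that were lower in URE cells are shown next. The first, at chr6:88181862-88182118, is the whole region centred 11.9 kb upstream of the distal start site, with its C/EBP motif TTGCNNAA in capitals, and the second, at chr6:88184773-88184932, lies in the region 9.04 kb upstream, with the ETS cores (as TTCCTC on this strand) in capitals. The third window, at chr6:88203135-88203254, is the intronic enhancer 9.42 kb downstream of the distal start site, with CATCTG (the E-box) and AGATAA in capitals, which serves as the reference element of the locus.
Gata2 11.9 kb upstream: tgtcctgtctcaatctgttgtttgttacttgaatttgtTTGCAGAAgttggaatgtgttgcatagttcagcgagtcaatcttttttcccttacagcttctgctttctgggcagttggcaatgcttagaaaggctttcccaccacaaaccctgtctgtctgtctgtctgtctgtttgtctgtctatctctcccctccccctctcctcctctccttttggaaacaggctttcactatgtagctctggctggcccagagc
Gata2 9.04 kb upstream: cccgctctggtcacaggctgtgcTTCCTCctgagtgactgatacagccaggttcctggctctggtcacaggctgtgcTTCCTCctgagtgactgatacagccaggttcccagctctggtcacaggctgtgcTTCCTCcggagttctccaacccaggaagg
Gata2 9.42 kb downstream: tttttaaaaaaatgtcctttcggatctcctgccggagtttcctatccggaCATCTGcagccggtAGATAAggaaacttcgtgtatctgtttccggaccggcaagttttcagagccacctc
At Gata3 the windows are those of the 2 regions that were lower in URE cells. The intronic one lies at chr2:9867335-9867494 and the intergenic one at chr2:9894504-9894663 (both minus strand). Capitals mark the GATA motif in the first and the longer PU.1 motif, ACTTCCTC on this strand, in the second.
Gata3 11.07 kb downstream: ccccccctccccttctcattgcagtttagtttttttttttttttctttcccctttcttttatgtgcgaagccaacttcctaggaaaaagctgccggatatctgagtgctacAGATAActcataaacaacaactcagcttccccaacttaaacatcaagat
Gata3 15.98 kb upstream: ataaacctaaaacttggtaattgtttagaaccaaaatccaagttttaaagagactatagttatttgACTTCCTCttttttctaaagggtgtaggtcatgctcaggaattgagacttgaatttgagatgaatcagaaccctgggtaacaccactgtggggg

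The libraries held 23072701 to 62204826 counts in regions, and values are given as CPM, the reads in a region as a share of all reads in regions brought to one fixed total for every library, after scaling of library sizes with the TMM method, with the standard deviation (SD) over the 3 libraries of a group. At these depths 3 counts amounted to 0.0520 to 0.126 CPM, and intervals and floors of this kind cover counting error only. In the 3 regions centred 12 to 16 kb upstream of the Spi1 start site, where the deleted element lies, WT libraries ranged from 3.94 to 46.2 CPM and no URE library exceeded 0.143 CPM. Marker genes were read at a region up to 5 kb away from their start sites, which need not be the promoter, and they followed the labels. The summed CPM of 4 of 5 GMP markers was 75.8 in WT-LSK and 260 in WT-GMP. For 4 of 5 LSK markers the sum was 158 in WT-LSK and 127 in WT-GMP. Ly6a, which encodes the Sca-1 of the LSK gate, and Fcgr3, a gene of the CD16/32 of the GMP gate, lacked regions within 5 kb of their start sites.

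**Figure D1:**
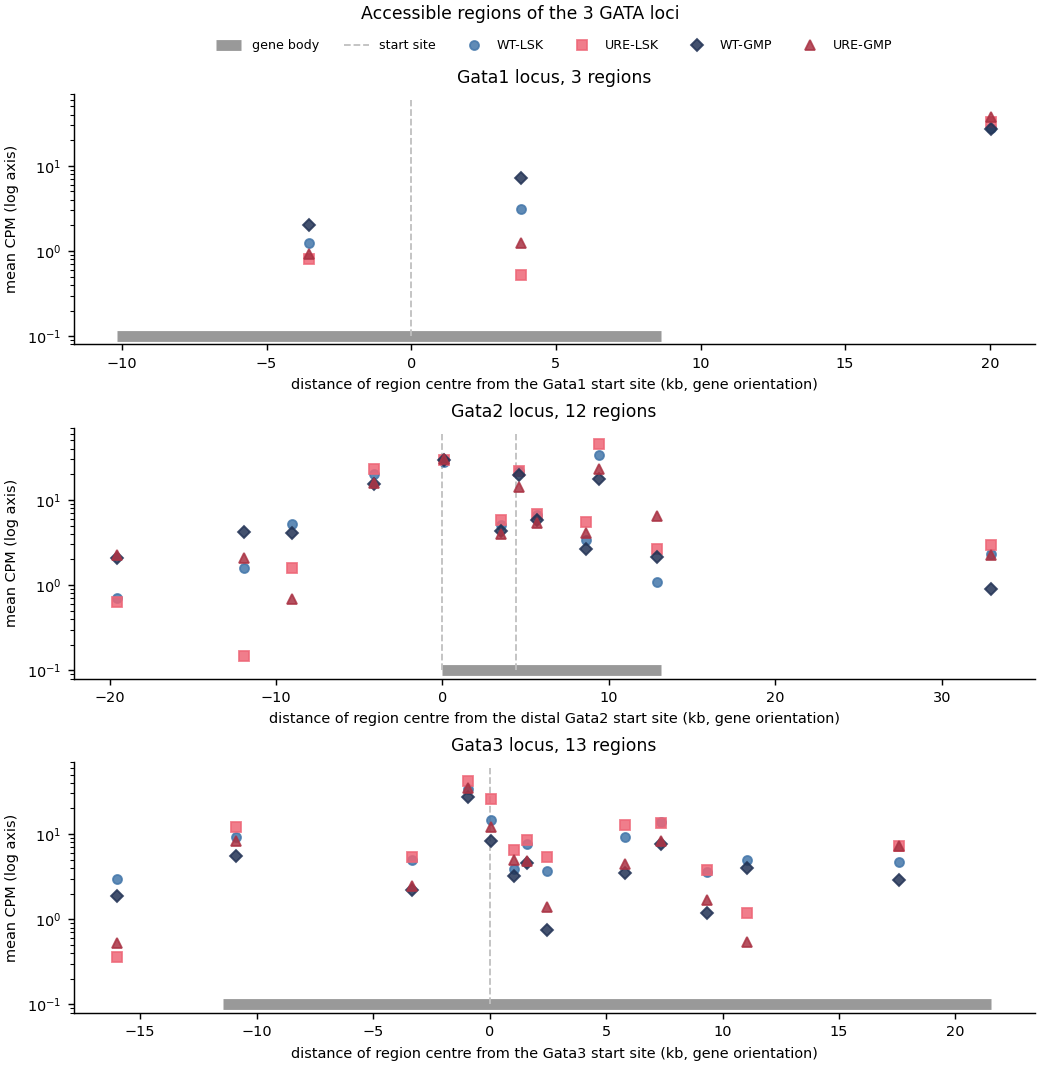
Mean CPM (log axis) of each of the 28 regions in the 4 groups against the distance of its centre from the start site of its gene in kb, in gene orientation; grey bars are gene bodies and dashed lines start sites. Gata1 had no region at its start site, Gata2 and Gata3 had their highest values around their promoters and, for Gata2, at 9.42 kb downstream, and the groups spread furthest at the distal regions.

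A region was called different where the edgeR quasi-likelihood test, adjusted over all 121336 regions by the Benjamini-Hochberg method, gave an adjusted p below 0.05 and the log2 fold change exceeded 1 in size. In LSK, 5 of the 28 regions (17.9%) were called lower in URE than in WT and 1 (3.6%) was called higher, while 23.9% and 13.6% of all regions were called lower and higher. In GMP, 6 (21.4%) were called lower and 3 (10.7%) higher, while 24.1% and 15.6% of all regions were. The shares called lower lay near those of the whole table, so the count of losses is not a result about the GATA loci. The median log2 fold change of the 28 regions was 0.16 in LSK and 0.12 in GMP, beside 0.14 and 0.06 over all regions. Of all regions called, 36.2% were higher in URE in LSK and 39.4% in GMP, and these shares were 52.2% and 53.9% with loess offsets and 51.9% and 52.3% with GC content offsets. The scaling of libraries moved the median of all regions by -0.18 to 0.14 on the log2 scale in LSK and by -0.14 to 0.15 in GMP, so that log2 fold changes of similar or smaller size depend on it. In bulk samples of this kind, fewer cells with an open region and less opening per cell cannot be told apart.

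Of the 28 members, 3 lay within 500 bp of a start site of the 3 genes and 13 (46.4%) more than 5 kb from one. Start sites here are those of the basic transcripts. The Gata3 gene body reaches further upstream, to chr2:9890034. The region 10.9 kb upstream (chr2:9889277-9889718), which lies near that end, is therefore counted as more than 5 kb away, and it was not called in either genotype comparison. Of the 5 regions called lower in LSK and the 6 in GMP, 4 in each cell type lay more than 5 kb away and none within 500 bp, and the regions called higher, 1 in LSK and 3 in GMP, all lay more than 5 kb away. Distance is therefore not particular to the lower regions. All promoters of Gata2 and Gata3 stayed short of the call in both genotype comparisons.

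**Figure D2:**
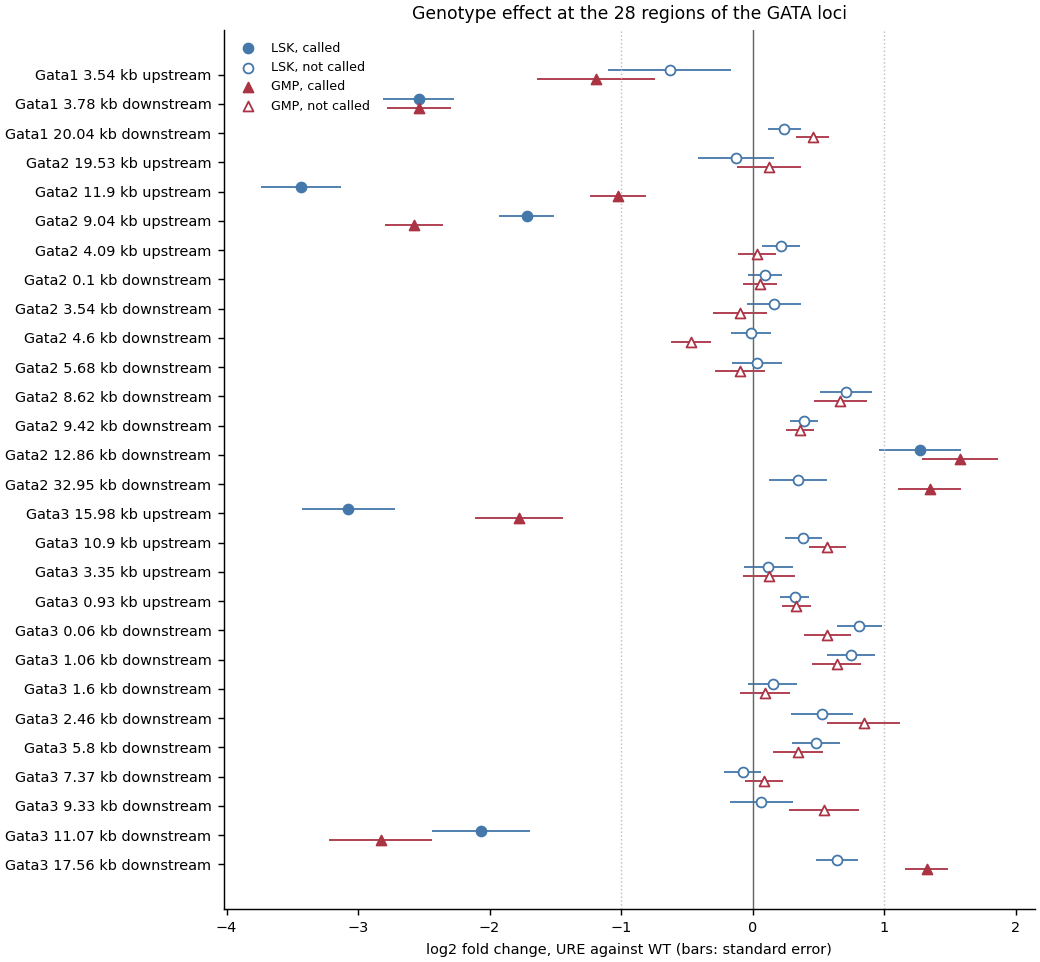
Log2 fold change of URE against WT in LSK (circles) and GMP (triangles) for each of the 28 regions, ordered along each gene, with standard errors as bars; filled symbols are called and dotted lines mark the fold change limit of 1. The lower regions lie at -1.02 to -3.44 where called and the uncalled regions at -0.63 to 0.85. The rule for a call itself requires a size over 1, so this gap is not a result. The call at 3.54 kb upstream of Gata1 has wide bars.

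At Gata1, which encodes the driver of red cells and megakaryocytes, accessibility in the gene body was low and was further reduced in URE cells. The region 3.78 kb downstream of the start site (chrX:7963830-7964440), in an intron, had 2.91, 2.98 and 3.34 CPM across the WT-LSK libraries, against 0.309, 0.586 and 0.684 CPM across those of URE-LSK. Among GMP libraries the values were 7.45, 6.67 and 7.63 CPM for WT and 1.14, 1.60 and 0.969 CPM for URE. All WT libraries were above all URE libraries of the same cell type, and WT-GMP was the highest group. The log2 fold change of URE against WT was -2.54 (SE 0.27, adjusted p = 9.67e-07) in LSK and -2.54 (SE 0.24, adjusted p = 5.11e-07) in GMP by edgeR. The region opened from LSK to GMP in both genotypes, by a log2 fold change of 1.23 (SE 0.23, adjusted p = 2.98e-04) in WT and 1.23 (SE 0.28, adjusted p = 9.58e-04) in URE, so that URE-GMP, at 1.24 ± 0.32 CPM (SD, n = 3), remained below WT-LSK at 3.08 ± 0.23 CPM. The step in URE fell short of the fold change limit without URE-LSK replicate 1 (0.96) and without URE-GMP replicate 2 (0.998), and in the test against a fold change of 1 (glmTreat) neither step passed, with adjusted p of 0.192 in WT and 0.175 in URE.

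The region 3.54 kb upstream of the Gata1 start site (chrX:7971312-7971585), at the G1HE enhancer that drives Gata1 in red cell and megakaryocyte precursors, was low in every group. It had 1.26, 0.775 and 1.67 CPM across the WT-LSK libraries, against 0.381, 0.949 and 1.11 CPM across those of URE-LSK. Its GMP values were 0.962, 1.59 and 3.50 CPM for WT, against 0.883, 0.659 and 1.19 CPM for URE. The groups overlapped in both cell types, and WT-GMP replicate 3 was the highest library. Its log2 fold change in GMP was -1.19 (SE 0.45, adjusted p = 0.0314 by edgeR), which was called, but the value dropped to -0.53 (adjusted p = 0.311) when WT-GMP replicate 3 was left out, without URE-GMP replicate 1 or 2 the adjusted p was 0.0781 or 0.101, and with loess offsets the value was -0.59. In LSK the log2 fold change was -0.63 (SE 0.47, adjusted p = 0.260), which did not pass.

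The third region in the Gata1 window lay 20.04 kb downstream of the start site (chrX:7947499-7948247), at the start of Hdac6, which encodes a cytoplasmic deacetylase. It held most of the accessibility of the window, with a WT-LSK mean of 28.04 ± 2.36 CPM against 33.1 ± 2.30 for URE-LSK, and a WT-GMP mean of 27.1 ± 5.42 CPM against 37.4 ± 2.98 for URE-GMP. Its log2 fold change in GMP was 0.46 (SE 0.13, adjusted p = 4.97e-03), short of the fold change limit, and 0.31 (adjusted p = 0.0711) with TMM factors from promoter regions. The summed CPM of the Gata1 window was therefore 32.4 ± 2.14 in WT-LSK and 34.4 ± 1.73 in URE-LSK with this region, and 4.31 ± 0.64 and 1.34 ± 0.58 without it. In GMP the sums were 36.4 ± 6.55 in WT and 39.6 ± 2.99 in URE with it, and 9.27 ± 1.61 and 2.15 ± 0.12 without it.

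At Gata2, the driver of stem cell maintenance and of mast cells, both promoters stayed open in URE cells. The region at the distal promoter, centred 0.10 kb downstream of that start site (chr6:88193384-88194597), had 30.4, 24.4 and 28.4 CPM across the WT-LSK libraries, against 31.6, 31.6 and 25.6 CPM across those of URE-LSK. The WT-GMP libraries held 34.6, 23.7 and 29.1 CPM, against 31.0, 28.8 and 30.9 CPM for URE-GMP. The 4 groups overlapped, with adjusted p of 0.560 in LSK and 0.719 in GMP by edgeR. Its 4 group means ran from 27.7 ± 3.05 CPM in WT-LSK through 29.1 ± 5.44 in WT-GMP and 29.6 ± 3.45 in URE-LSK to 30.2 ± 1.24 in URE-GMP, and no neighbours in this order were separated by more than their SD.

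The region at the proximal promoter, centred 4.6 kb downstream of the distal start site (chr6:88198014-88198972), had 23.2, 19.2 and 22.9 CPM across the WT-LSK libraries, against 22.4, 23.98 and 18.3 CPM across those of URE-LSK. Among GMP libraries the values were 24.1, 15.4 and 19.9 CPM for WT and 15.8, 13.1 and 13.9 CPM for URE. The LSK groups overlapped throughout, and in GMP only the lowest WT library reached into the URE range. The log2 fold change in GMP was -0.47 (SE 0.15, adjusted p = 0.0154 by edgeR), which passed the adjusted p but not the fold change limit, and the step from LSK to GMP in URE was -0.60 (SE 0.15, adjusted p = 2.61e-03). Within URE the proximal promoter thus fell below its LSK level while the distal promoter kept its mean.

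**Figure D3:**
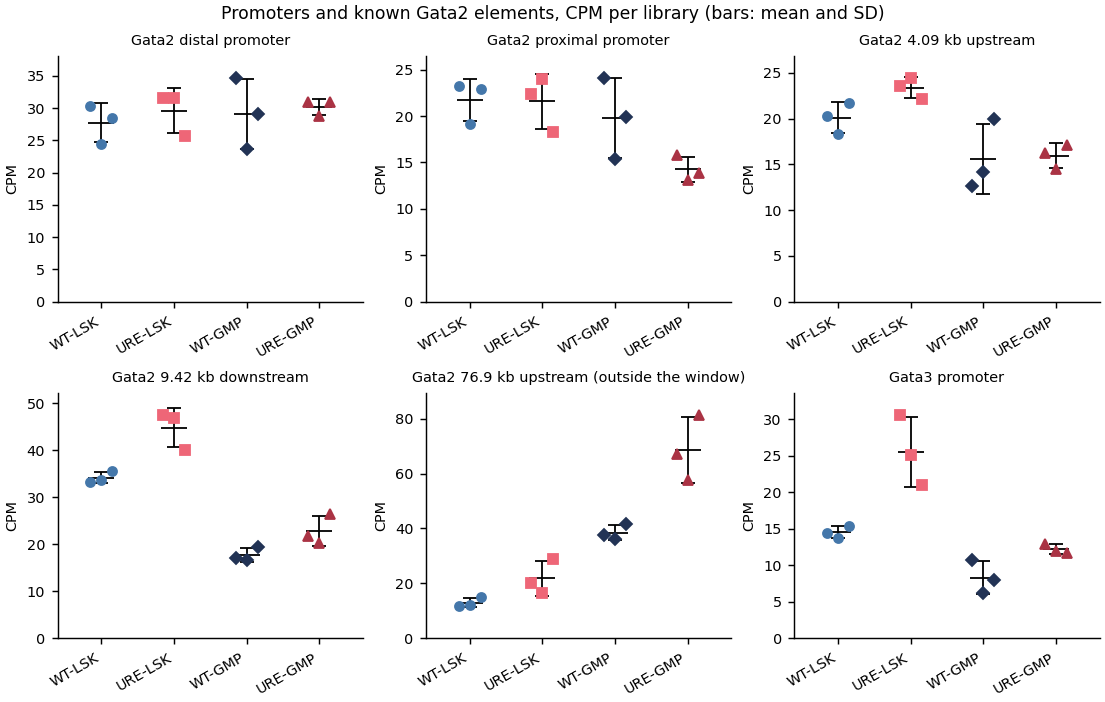
CPM of each library (symbols) with the mean and SD of its group (black) for the Gata2 promoters, 3 Gata2 elements and the Gata3 promoter; axes start at 0. The Gata2 distal promoter has overlapping groups near 30 CPM, the element 9.42 kb downstream is higher in LSK, the element 76.9 kb upstream is higher in GMP, and the Gata3 promoter is highest in URE-LSK.

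The intronic enhancer 9.42 kb downstream of the distal start site (chr6:88202931-88203693) was the most accessible member at Gata2 in LSK, and it was more open in URE cells. It had 33.2, 33.7 and 35.5 CPM across the WT-LSK libraries, against 47.5, 46.9 and 40.0 CPM across those of URE-LSK. Its GMP values were 17.2, 16.6 and 19.4 CPM for WT, against 21.8, 20.2 and 26.4 CPM for URE. Every URE library was above every WT library of the same cell type, and every LSK library was above every GMP library. The log2 fold change of URE against WT was 0.39 (SE 0.11, adjusted p = 5.71e-03) in LSK and 0.36 (SE 0.11, adjusted p = 0.010) in GMP, both short of the fold change limit. This difference rests on the scaling: with TMM factors taken from promoter regions it was 0.21 (adjusted p = 0.125) in LSK and 0.22 (adjusted p = 0.0990) in GMP, and with GC content offsets it was 0.73 (adjusted p = 5.65e-05) and 0.63 (adjusted p = 2.57e-04). The step to GMP was -0.95 (SE 0.11, adjusted p = 4.07e-06) in WT and -0.98 (SE 0.11, adjusted p = 9.16e-07) in URE, values just inside the fold change limit that passed it under several alternatives. The neighbouring region 8.62 kb downstream rose likewise, with log2 fold changes of 0.71 (SE 0.20, adjusted p = 6.19e-03) in LSK and 0.67 (SE 0.20, adjusted p = 9.38e-03) in GMP.

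Among the other known Gata2 elements, the region 4.09 kb upstream (chr6:88189480-88190118) lay within 1 kb of the one named after its distance of about 3.9 kb, a site that GATA factors occupy during the GATA switch. It had a WT-LSK mean of 20.1 ± 1.67 CPM against 23.4 ± 1.15 for URE-LSK, and a WT-GMP mean of 15.6 ± 3.83 CPM against 15.96 ± 1.32 for URE-GMP, with adjusted p of 0.214 and 0.869 for the genotypes. No region of the table covered the positions of the known elements 2.8 and 1.8 kb upstream. The enhancer that lies furthest upstream, at about 77 kb, and supports Gata2 in progenitors fell outside the window. Its position was covered by a region centred 76.9 kb upstream (chr6:88116403-88117568), nearest to the start of Rpn1. That region is not a member and was followed beside the members.

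This region 76.9 kb upstream had 11.8, 12.2 and 14.96 CPM across the WT-LSK libraries, against 20.2, 16.3 and 28.8 CPM across those of URE-LSK. The WT-GMP libraries held 37.4, 36.3 and 41.5 CPM, against 66.9, 57.5 and 81.3 CPM for URE-GMP. The 4 groups did not overlap and URE-GMP was the highest. Its log2 fold change of URE against WT was 0.74 (SE 0.17, adjusted p = 1.75e-03) in LSK and 0.84 (SE 0.17, adjusted p = 4.57e-04) in GMP, short of the limit, and its step to GMP was called higher in WT, at 1.56 (SE 0.18, adjusted p = 2.80e-06), and in URE, at 1.65 (SE 0.17, adjusted p = 4.40e-07). The enhancer 9.42 kb downstream and the region 76.9 kb upstream thus moved in opposite directions from LSK to GMP, and both were higher in URE.

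A pair of intergenic regions further upstream of the distal promoter moved the other way. The region 9.04 kb upstream (chr6:88184684-88185016), which holds 3 copies of the ETS core GAGGAA, had 5.48, 4.45 and 5.53 CPM across the WT-LSK libraries, against 1.81, 1.65 and 1.26 CPM across those of URE-LSK. Among GMP libraries the values were 3.77, 3.76 and 4.61 CPM for WT and 0.624, 0.642 and 0.775 CPM for URE. The genotypes did not overlap in either cell type. URE against WT gave a log2 fold change of -1.72 (SE 0.21, adjusted p = 3.17e-06) in LSK and -2.57 (SE 0.22, adjusted p = 1.96e-07) in GMP. The difference between these effects was -0.85 (SE 0.30) with an adjusted p of 0.0614, which did not pass.

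The region 11.9 kb upstream (chr6:88181862-88182118) had the largest loss of the 28 regions in LSK. It had 1.84, 1.59 and 1.37 CPM across the WT-LSK libraries, against 0.119, 0.167 and 0.150 CPM across those of URE-LSK, which is 5 to 7 counts per URE-LSK library. Its GMP values were 4.73, 4.64 and 3.32 CPM for WT, against 2.26, 1.98 and 1.99 CPM for URE. URE-LSK was close to the floor of 3 counts and URE-GMP exceeded WT-LSK, so that the 4 groups did not overlap. By edgeR the log2 fold change was -3.44 (SE 0.30, adjusted p = 1.32e-07) in LSK and -1.02 (SE 0.21, adjusted p = 6.47e-04) in GMP, and the GMP value lay so near the fold change limit that it was -0.97 and not called with DESeq2 and -0.61 with GC content offsets. From LSK to GMP the region opened by a log2 fold change of 1.40 (SE 0.22, adjusted p = 6.45e-05) in WT and 3.82 (SE 0.30, adjusted p = 2.83e-08) in URE.

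**Figure D4:**
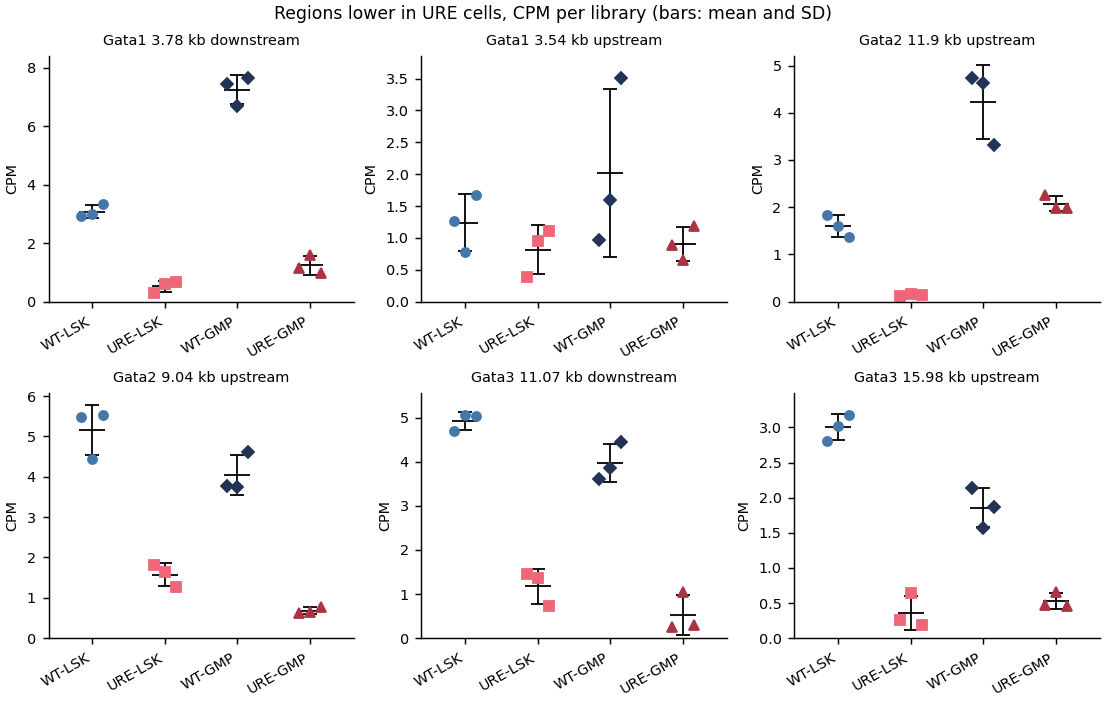
CPM of each library (symbols) with the mean and SD of its group (black) for the 6 regions called lower in URE GMP, 5 of them also in URE LSK; axes start at 0. The genotypes separate in every panel except 3.54 kb upstream of Gata1, where WT-GMP spans 0.962 to 3.50 CPM, and at 11.9 kb upstream of Gata2 the URE-GMP libraries lie above WT-LSK.

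Of the Gata2 members, 2 were called higher in URE cells. The region 12.86 kb downstream (chr6:88206609-88206894), in untranslated sequence near the 3′ end of Gata2, had 1.02, 0.734 and 1.49 CPM across the WT-LSK libraries, against 2.50, 1.51 and 4.04 CPM across those of URE-LSK. The WT-GMP libraries held 1.97, 2.20 and 2.33 CPM, against 6.61, 6.40 and 6.44 CPM for URE-GMP. The genotypes did not overlap within a cell type, although the URE-LSK libraries spread widely. The genotype effect on the log2 scale was 1.27 (SE 0.31, adjusted p = 2.41e-03) in LSK and 1.57 (SE 0.29, adjusted p = 2.19e-04) in GMP, and without URE-LSK replicate 3 the LSK value was 0.85 and not called. The region 32.95 kb downstream (chr6:88226718-88226964), in an intron of Dnajb8, a chaperone gene, had a WT-LSK mean of 2.32 ± 0.30 CPM against 2.95 ± 0.45 for URE-LSK, and a WT-GMP mean of 0.892 ± 0.14 CPM against 2.24 ± 0.40 for URE-GMP. The log2 fold change was 1.35 (SE 0.24, adjusted p = 1.53e-04) in GMP, while in LSK the adjusted p was 0.191.

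The remaining Gata2 members changed less between genotypes. The region 19.53 kb upstream, with a mean of 0.6995 ± 0.08 CPM over WT-LSK and 0.631 ± 0.14 over URE-LSK, opened to 2.06 ± 0.50 over WT-GMP and 2.25 ± 0.11 over URE-GMP, and the step was called in WT (1.57, SE 0.27) and in URE (1.82, SE 0.27). The regions 3.54 and 5.68 kb downstream, between and beside the promoters, had group means between 3.95 and 6.78 CPM and passed in neither genotype comparison. The summed CPM of the 12 Gata2 regions was highest in URE-LSK (145 ± 13.2), followed by WT-LSK (130 ± 8.498), URE-GMP (110 ± 7.17) and WT-GMP (108 ± 12.5). The libraries of URE-LSK and WT-LSK overlapped in this sum, as did those of URE-GMP and WT-GMP.

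At Gata3, the T cell and innate lymphoid factor, the promoter was more open in URE cells. The region at the start site (chr2:9878059-9879014), which the non-coding gene Gm13256 also overlaps, had 14.4, 13.7 and 15.4 CPM across the WT-LSK libraries, against 30.6, 25.0 and 20.9 CPM across those of URE-LSK. Among GMP libraries the values were 10.7, 6.23 and 7.93 CPM for WT and 12.9, 11.9 and 11.7 CPM for URE. The genotypes did not overlap in either cell type and URE-LSK was the highest group. URE exceeded WT by a log2 fold change of 0.81 (SE 0.17, adjusted p = 7.95e-04) in LSK and 0.57 (SE 0.18, adjusted p = 0.0106) in GMP, both short of the fold change limit, and the adjusted p stayed below 0.05 under each scaling run. The order of the means was URE-LSK (25.5 ± 4.84 CPM), WT-LSK (14.5 ± 0.84), URE-GMP (12.2 ± 0.66) and WT-GMP (8.29 ± 2.26).

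Around the promoter 2 further regions were higher in URE by the adjusted p. The region 0.93 kb upstream (chr2:9879149-9879914), the most accessible Gata3 member, had a WT-LSK mean of 33.8 ± 1.34 CPM against 42.2 ± 2.79 for URE-LSK, and a WT-GMP mean of 27.6 ± 5.05 CPM against 34.8 ± 1.64 for URE-GMP. URE against WT gave a log2 fold change of 0.32 (SE 0.11, adjusted p = 0.0210) in LSK and 0.33 (SE 0.11, adjusted p = 0.0164) in GMP, but neither passed with TMM factors from promoter regions (0.14, adjusted p = 0.368, and 0.19, adjusted p = 0.200). The region 1.06 kb downstream, in a coding exon, passed the adjusted p in LSK at 0.75 (SE 0.19, adjusted p = 2.72e-03) and in GMP at 0.64 (SE 0.19, adjusted p = 7.86e-03). Counting by the adjusted p alone, 6 of the 13 Gata3 regions were higher and 2 lower in URE in each cell type, while 27.9% of all regions were higher and 28.9% lower by this rule in LSK and 29.6% and 31.2% in GMP. Over the 28 members, 8 regions in each cell type passed the adjusted p as higher without being called, and with promoter-based factors 4 of these passed in LSK and 5 in GMP.

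Of the 13 Gata3 members, 2 distal regions carried the losses. The region 11.07 kb downstream (chr2:9867206-9867847), in an intron, had 4.70, 5.06 and 5.03 CPM across the WT-LSK libraries, against 1.45, 1.37 and 0.726 CPM across those of URE-LSK. Its GMP values were 3.598, 3.86 and 4.45 CPM for WT, against 0.258, 1.06 and 0.291 CPM for URE. WT and URE did not overlap in either cell type, and URE-GMP replicate 2 stood above the other URE-GMP libraries. By edgeR the log2 fold change was -2.07 (SE 0.37, adjusted p = 1.79e-04) in LSK and -2.83 (SE 0.39, adjusted p = 1.62e-05) in GMP.

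The intergenic region 15.98 kb upstream of Gata3 (chr2:9894465-9894703), which holds the 8-base PU.1 motif and whose nearest annotated start is that of 9230102O04Rik, annotated as protein coding, had 2.81, 3.02 and 3.18 CPM across the WT-LSK libraries, against 0.262, 0.642 and 0.192 CPM across those of URE-LSK. The WT-GMP libraries held 2.13, 1.57 and 1.87 CPM, against 0.474, 0.659 and 0.460 CPM for URE-GMP. The genotypes did not overlap, and the URE groups overlapped each other at 0.192 to 0.659 CPM. The genotype effect on the log2 scale was -3.07 (SE 0.35, adjusted p = 1.96e-06) in LSK and -1.78 (SE 0.33, adjusted p = 2.50e-04) in GMP. In contrast, the region 17.56 kb downstream (chr2:9860777-9861298), in an intron near the 3′ end, had a WT-LSK mean of 4.69 ± 0.49 CPM against 7.32 ± 0.65 for URE-LSK, and a WT-GMP mean of 2.92 ± 0.16 CPM against 7.30 ± 0.53 for URE-GMP. It rose in GMP by a log2 fold change of 1.33 (SE 0.16, adjusted p = 5.32e-06), which was called, and in LSK by 0.64 (SE 0.16, adjusted p = 2.91e-03), which was called only with GC content offsets (1.09).

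The step from LSK to GMP divided the 3 genes. In WT, 3 of the 28 regions were called higher in GMP and 5 lower, while 21% and 16.8% of all regions were called higher and lower. In URE, 4 were called higher and 7 lower, beside 27.6% and 21.6% of all regions. None of the higher calls was at Gata3, where 4 of 13 regions were called lower in WT and 6 in URE, and where the median log2 fold change was -0.77 in WT and -0.83 in URE, beside -0.01 and 0.03 over all regions. The largest closing was in the Gata3 intron 2.46 kb downstream, from 2.68, 3.92 and 4.44 CPM in WT-LSK to 0.669, 0.629 and 0.968 CPM in WT-GMP, and from 5.85, 5.97 and 4.12 CPM in URE-LSK to 1.46, 1.16 and 1.502 CPM in URE-GMP. LSK and GMP libraries did not overlap there in either genotype, with log2 fold changes of -2.27 (SE 0.27, adjusted p = 4.78e-06) in WT and -1.95 (SE 0.25, adjusted p = 3.58e-06) in URE.

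The Gata3 promoter had a step to GMP of -0.83 (SE 0.18, adjusted p = 8.80e-04) in WT and of -1.07 (SE 0.17, adjusted p = 4.27e-05) in URE, and only the latter was called. The call in URE was lost without URE-LSK replicate 1, at -0.92, with GC content offsets, at -0.97, and in glmTreat, with an adjusted p of 0.326. The summed CPM of the 13 Gata3 regions followed the order URE-LSK (144 ± 13.96), WT-LSK (117 ± 5.51), URE-GMP (91.5 ± 3.03) and WT-GMP (73.3 ± 7.12), and no libraries of neighbouring groups overlapped in this order, although with library size scaling alone WT-LSK replicate 3 (132) exceeded URE-LSK replicate 3 (131).

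**Figure D5:**
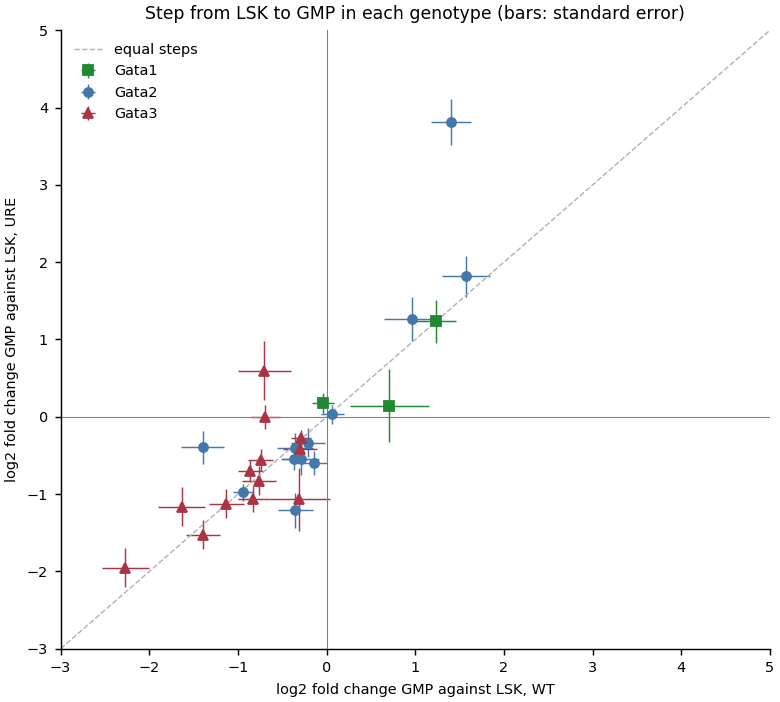
Log2 fold change of GMP against LSK in WT (x axis) and in URE (y axis) for each of the 28 regions, with standard errors as bars and a dashed line of equal steps. All Gata3 regions lie at or left of 0 in WT, and the Gata2 region 11.9 kb upstream, at 1.40 in WT and 3.82 in URE, lies far above the line.

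Whether the genotype effect differed between the cell types was tested by the interaction, the effect in GMP minus that in LSK. It was called positive at 2 of the 28 regions and negative at 0, beside 8.96% and 5.03% of all regions; by the edgeR adjusted p alone 3 regions passed, beside 10.2% higher and 6.61% lower of all regions, and DESeq2 called 3. The region 11.9 kb upstream of Gata2 had an interaction of 2.41 (SE 0.38, adjusted p = 5.75e-04). The region 32.95 kb downstream of Gata2 had 1.003 (SE 0.32, adjusted p = 0.0438), a value at the fold change limit. For the Gata3 region 15.98 kb upstream the interaction was 1.30 (SE 0.49) with an adjusted p of 0.0792, although DESeq2 gave an adjusted p of 0.0472. At the Gata1 intron, where the log2 fold changes were alike in both cell types, the adjusted p of the interaction was 0.993, which does not show that the effects are equal.

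The regions called lower were compared with the others by the motifs they hold, searched on both strands over the whole region. GAGGAA, which includes every GAGGAAGT, was present in 4 of the 5 regions called lower in LSK and in 4 of the 6 called lower in GMP, and in none of the regions called higher. It was present in 12 of the 28 members (42.9%) and in 46.9% of all regions. The Gata1 intron region held 7 copies, the Gata2 region 9.04 kb upstream 3, and the Gata3 regions 11.07 kb downstream and 15.98 kb upstream 1 each. The longer form GAGGAAGT was present in 2 members, the Gata3 region 15.98 kb upstream and the Gata2 region 19.53 kb upstream, and in 10.5% of all regions. The first fell in URE and the second passed in neither genotype comparison, with adjusted p of 0.722 in LSK and 0.678 in GMP.

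AGATAA was present in 5 members and in 15.7% of all regions, and these members were both Gata1 gene body regions, the Gata2 regions 19.53 kb upstream and 9.42 kb downstream, and the Gata3 region 11.07 kb downstream. The combination of CATCTG and, 8 bases on, AGATAA was present in 29 of the 121336 regions, 1 of them the Gata2 enhancer 9.42 kb downstream. The Gata2 region 11.9 kb upstream held neither AGATAA nor GAGGAA. It held TTGCNNAA, a form of the C/EBP motif found in 4 members and in 20.5% of all regions. The RUNX motif AACCACA was present in 2 members and in 17.3% of all regions.

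The genes that work with GATA factors were examined in windows of the same kind. Of 254 regions at 9 cofactors and partners, such as Zfpm1 (the GATA cofactor FOG-1), Tal1, Lmo2 and Runx1, 21 (8.3%) were called higher and 31 (12.2%) lower in URE LSK, and 30 (11.8%) and 40 (15.7%) in URE GMP, all below the shares of the whole table. Of 127 regions at 14 targets of GATA1 and GATA2, 11 (8.7%) were called higher and 27 (21.3%) lower in LSK, and 8 (6.3%) and 29 (22.8%) in GMP, where the lower shares lay near the 23.9% and 24.1% of all regions. The lower calls among them included 9 of 16 regions at Hdc, the histamine synthesis gene of mast cells and basophils, and 6 of 11 at Ms4a2, a chain of their IgE receptor, in LSK, while at the mast cell protease gene Cpa3 2 of 6 were called higher and 1 lower. At the red cell genes Klf1, Epor and Alas2, 2 regions were called higher and 1 lower in LSK. Of 70 regions at 6 partners of GATA3 in T cells, 18 (25.7%) were called higher and 9 (12.9%) lower in LSK and 19 (27.1%) and 8 (11.4%) in GMP, beside 13.6% and 23.9% of all regions in LSK and 15.6% and 24.1% in GMP. The members of this list differed, since 5 of 8 regions at Bcl11b, a T cell commitment factor, were called higher in LSK and none lower, while at Rag1, a recombinase gene, 0 of 6 were called higher and 2 lower, and at Tcf7, a T cell transcription factor, 1 of 11 higher and 2 lower. The other family members Gata4, Gata5 and Gata6, which act mainly outside blood, had 11 regions, of which 1 was called higher and 1 lower in each cell type.

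Markers of cell types that use GATA factors were measured at a region up to 5 kb away from their start sites, which need not be the promoter. For mast cells and basophils, 2 of the 4 marker genes had such a region, Cpa3 and Mcpt8. Their summed CPM was 7.38 to 11.4 over WT-LSK libraries against 23.8 to 30.6 over URE-LSK, and 9.90 to 13.1 over WT-GMP against 24.8 to 34.5 over URE-GMP. Mcpt8 was called higher in LSK (log2 fold change 2.13) and in GMP (1.56), and Cpa3 in LSK (1.15) but not in GMP (0.66). Ms4a2 and Hdc went the other way. Ms4a2, a marker without such a region, had 6 of 11 regions of its 20 kb window called lower in each cell type and none higher. At Hdc, 9 of 16 were called lower and 1 higher in LSK. For red cells, 4 of 5 marker genes summed to 65.1 to 68.8 CPM over WT-LSK against 76.1 to 83.2 over URE-LSK, and to 63.7 to 69.9 over WT-GMP against 70.6 to 73.2 over URE-GMP. The 4 megakaryocyte markers summed to 94.0 to 108 CPM over WT-LSK against 121 to 132 over URE-LSK, and to 67.1 to 85.6 over WT-GMP against 72.1 to 78.2 over URE-GMP. Among them Pf4 went the other way in LSK, with means of 17.5 CPM in WT and 13.8 in URE. In GMP its means were 9.60 and 3.84 CPM, and it was called lower, at a log2 fold change of -1.32. Itga2b, Gp9 and Gp1bb had higher means in URE-LSK than in WT-LSK, and none was called in either cell type. In URE-GMP the mean of Gp9 was also lower than in WT, and those of Itga2b and Gp1bb were higher. For T and innate lymphoid cells 2 of 4 genes had a region, summing to 10.03 to 13.6 CPM over WT-LSK against 7.48 to 7.73 over URE-LSK, and to 15.3 to 16.6 over WT-GMP against 13.6 to 15.2 over URE-GMP. Of these, Il7r was called lower in LSK, with means of 5.26 and 0.384 CPM, and Tcf7, with means of 6.36 and 7.22 CPM, was not called. The T cell genes Cd3e and Cd3g had no region within 5 kb of a start site. In the 20 kb window of Cd3e, 3 of 6 regions were called higher in LSK and 2 in GMP, and none lower, so the T marker sum leaves out a gene that went the other way. The part of such cells in the values at the GATA loci was not tested.

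The promoters whose pattern over the 12 libraries was most like that of each gene were sought among 14183 genes by Pearson's correlation of log2 CPM, given as a description since libraries of a group share their genotype and cell type. For the Gata3 promoter they were Sall2 (0.989), Arid3c (0.987), 6330403K07Rik (0.983), Egr2 (0.982) and Gstt2 (0.981). For the Gata2 distal promoter, which hardly varied, they were Pygb (0.873), Cbx7 (0.854), Zfp260 (0.843), Katnal2 (0.832) and As3mt (0.831). Gata1 had no region within 500 bp of its start site and was not compared.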

How the data were processed

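The members and the gene lists were chosen with earlier results of these data known. ATAC-seq (OmniATAC) was made from LSK and GMP cells of 3 mice per genotype and cell type. Per the study's methods, the authors aligned reads to GRCm38 with Bowtie2, removed duplicates and non-primary chromosomes and called peaks per group with Genrich. The submitters' processing notes also name cutadapt, bedtools and featureCounts, and the unit that was counted (fragment or read end) is not given in the sources used here. The deposited file holds raw counts per region in 12 libraries. Region starts were taken as 0-based and are printed 1-based. Members were taken by overlap with GENCODE M21 basic genes, and distances run from a region's centre to the start site (the distal one for Gata2).

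All 121336 regions were fitted with edgeR 4.0.16 (TMM, quasi-likelihood, 1 coefficient for each of the 4 groups) in R 4.3.3, and the fit was tested on simulated data. The edgeR filter on low counts was applied and removed no region, so the alternative without a filter repeats the main fit. The limits are those of the study, which used DESeq2; DESeq2 1.42.0, other scalings, filters, thresholds and windows and leaving out each library were alternatives. The named regions were the strongest within 500 bp of each start site, per gene up to 6 called in a genotype comparison and up to 3 called in the interaction, and the known Gata2 elements; other regions were named after their values were seen. Replicate libraries correlated at 0.940 to 0.980 in log2 CPM. The labels do not say that same-numbered libraries share an animal or batch. Their deviations from the group means correlated above 0.1 in every pair only between WT-LSK and WT-GMP (0.181, 0.191 and 0.207). A replicate block was therefore considered for the WT step alone, where it gave 9 calls beside 8. The block was fitted over all 4 groups, so it also tied same-numbered URE libraries to the WT ones. Unless the block is named, the values given for the WT step come from the unpaired fit without it.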

Additional observations from a re-analysis of the deposited data

Results flagged for a closer look

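The effect of the deletion differed between LSK and GMP at 2 regions of the Gata2 window by the edgeR interaction test. At the region 11.9 kb upstream the effect in GMP minus that in LSK was 2.41 on the log2 scale (SE 0.38, adjusted p = 5.75e-04), and it was called in all 23 alternatives run, at 2.29 to 2.58. At the region 32.95 kb downstream, in an intron of Dnajb8, the difference was 1.003 (SE 0.32, adjusted p = 0.0438), with adjusted p from 0.0272 to 1 over its alternatives, and the call held in 11 of 23. The latter call was lost without replicates 2 or 3 of WT-LSK, 1 or 3 of URE-LSK, 2 or 3 of WT-GMP, or 1 or 3 of URE-GMP, at adjusted p of 0.0583 to 0.105. Outlying values within a group were not tested, since each group had 3 libraries.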

How the results depend on the processing

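Of the 15 genotype calls at the members, 11 held in every alternative run. The exceptions were the GMP calls at Gata1 3.54 kb upstream and Gata2 11.9 kb upstream, the LSK call at Gata2 12.86 kb downstream and, in the test against a fold change of 1 (glmTreat), the GMP call at Gata2 32.95 kb downstream. With no fold change limit the members called were 14 in LSK, 18 in GMP, 17 in the WT step and 19 in the URE step, against 6, 9, 8 and 11. In LSK these were 9 higher and 5 lower of 28, beside 27.9% and 28.9% of all regions. In GMP they were 11 higher and 7 lower, beside 29.6% and 31.2% of all regions. Windows of 50 kb gave 10, 14, 17 and 21, and 5 in the interaction against 2. They hold more regions, so these counts cannot be compared with the main ones as shares. Windows of 5 kb, which hold fewer regions, gave 5 in the WT step and 0 in the interaction. glmTreat gave 4 in the WT step, 4 in the URE step and 1 in the interaction, and loess offsets, an adjusted p below 0.01 and regions nearest to the member gene also gave 1 in the interaction. Leaving out 1 library gave 5 to 6 calls in LSK, 7 to 9 in GMP, 8 to 10 in the WT step, 8 to 12 in the URE step and 1 to 3 in the interaction. At the Gata1 region 3.54 kb upstream the sign turned in values that had not passed: the LSK effect was 0.022 with loess offsets, and without WT-GMP replicate 3 the WT step was -0.050 and the interaction 0.16, where leaving out single libraries gave -0.050 to 0.95 and -0.90 to 0.16; the cause was not tested.

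Same-numbered libraries of WT-LSK and URE-LSK (0.102, 0.0625 and -0.0616), of WT-GMP and URE-GMP (0.0997, 0.205 and 0.349) and of URE-LSK and URE-GMP (0.0616, 0.273 and 0.113) did not correlate above 0.1 in every pair. The replicate block gave 6 calls in LSK, 9 in GMP, 11 in the URE step, 9 in the WT step and 1 in the interaction, and with GC content offsets 8, 10, 11, 9 and 1. In the WT step, where same-numbered libraries correlated above 0.1 in every pair, the block brought Gata2 12.86 kb downstream past the limit, at 1.02. It changed no other call there.

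Summed CPM scaled by library size alone moved to 34.5 at Gata1, 138 at Gata2 and 125 at Gata3 in WT-LSK and to 85.8 at Gata3 in URE-GMP. With that scaling WT exceeded URE in the Gata1 sums of LSK (34.5 against 33.8) and GMP (37.2 against 37.1) and in the Gata2 sum of GMP (110.02 against 104), the other way round than with TMM. Counting only regions nearest to the gene moved the sums to 4.31, 1.34, 9.27 and 2.15 at Gata1 and 100.02, 127, 63.7 and 80.3 at Gata3, LSK before GMP and WT before URE. Regions near 1 CPM rest on few counts per library, and those of URE-LSK at Gata2 11.9 kb upstream on 5 to 7.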
